A study of Mus musculus with 6 samples.

Results

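Interferon-stimulated effector genes encode the proteins that cells make against viruses and intracellular microbes after sensing an interferon. The 45 genes described here were chosen by name, as a list of well-known interferon-stimulated effectors. Earlier results of these data were known when this list and the lists below were chosen, so their counts are descriptive. Each of the 45 genes was found once among the 29940 genes of the deposited table. They were measured by RNA sequencing in colon organoids, small bodies of epithelium grown in a gel from large-intestinal crypts. The donor animals were C57BL/6J mice, an inbred strain for which the labels name no engineered allele. After 2 days of culture, 3 samples received tumour necrosis factor alpha (TNF, an inflammatory cytokine) for 24 hours, and 3 samples were kept alone over the same time (Ctrl). How much TNF was added is not stated in the sources used here. The labels do not say whether replicates came from separate animals or cultures, so p-values measure the spread between these 6 samples alone, and that spread may be technical.

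Interferons of type I and type III act through their own receptors on the Janus kinases, which activate the factor ISGF3, of which Stat2 and Irf9 are parts. ISGF3 binds the interferon-stimulated response element (ISRE) in the promoters of these genes, while interferon gamma acts through the gamma-activated site (GAS). Interferon regulatory factors such as Irf1 bind the same ISRE and can raise many of the genes without ISGF3. In the gut epithelium, type III interferon is the main antiviral interferon, and many of these genes also have a level in uninfected tissue.

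Levels were deposited by the authors as values that behave as FPKM (fragments per kilobase of exon, scaled to the total fragments of the library). As recovered from the low values, 1 FPKM in a gene of 1 kilobase stood for 14.03 to 16.09 fragments, depending on the library. The NF-κB targets Nfkbia and Tnfaip3, read as a check of the treatment, were higher in each TNF sample than in any Ctrl sample, by ratios of mean FPKM of 5.56 and 5.55. Summed markers of colon epithelium came to 4282 to 4557 FPKM in TNF samples and 3918 to 4227 FPKM in Ctrl samples. The 10 epithelial markers went both ways, with 5 positive and 5 negative log2 changes and a median of -0.009. Krt8, the most abundant of them, had means of 1304 FPKM with TNF and 1074 FPKM without. Markers of fibroblasts and muscle summed to 3.84 to 4.52 FPKM in TNF samples and 5.91 to 13.9 FPKM in Ctrl samples.

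Of the 45 genes, 30 averaged at least 1 FPKM across the libraries and were tested, and 15 stayed under this filter. TNF raised 13 of the 30 (43.3%) and lowered none, by limma on log2(FPKM + 1) with Benjamini-Hochberg adjusted p under 0.05 over all 12350 tested genes. Over those 12350 genes, 24.0% were called, 12.9% as higher and 11.1% as lower with TNF. At an unadjusted p under 0.05, 6 of the 17 uncalled members also passed, all with a higher TNF mean, as did 7.55% of all uncalled genes in that direction. The median log2 change was 0.25 over the 30 tested members and -0.001 over all tested genes, and 27 of the 30 changes were positive. In 18 of the 30, each TNF value lay above each Ctrl value, a pattern that 21.0% of all tested genes showed, and in none did each TNF value lie below, against 20.4% of all tested genes. Gbp6 and Cmpk2 had a Ctrl mean under 1 FPKM and entered the test only through their TNF values. In whole organoids, more cells that express a gene and more RNA per cell cannot be told apart.

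The changes were modest in size. Only Gbp6 (13.8) and Parp14 (2.12) among the called members had a ratio of mean FPKM of at least 2, and the median log2 change of the 13 called members was 0.53, against 0.36 over all genes called higher. Grouped by role, all 4 tested genes of ADP-ribosylation were called. The calls in the other groups were 2 of 5 RNA sensors and responders, 2 of 5 membrane proteins, 2 of 4 OAS and RNA decay genes, 1 of 2 IFIT genes, 1 of 4 interferon-inducible GTPases, and the single tested gene of the Mx and viperin group. The Mx and viperin gene, Cmpk2, and the called GTPase, Gbp6, entered the test only through their TNF values. Neither tested gene of the ISG15 system was called, nor were any of the 3 other tested effectors.

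**Figure D1:**
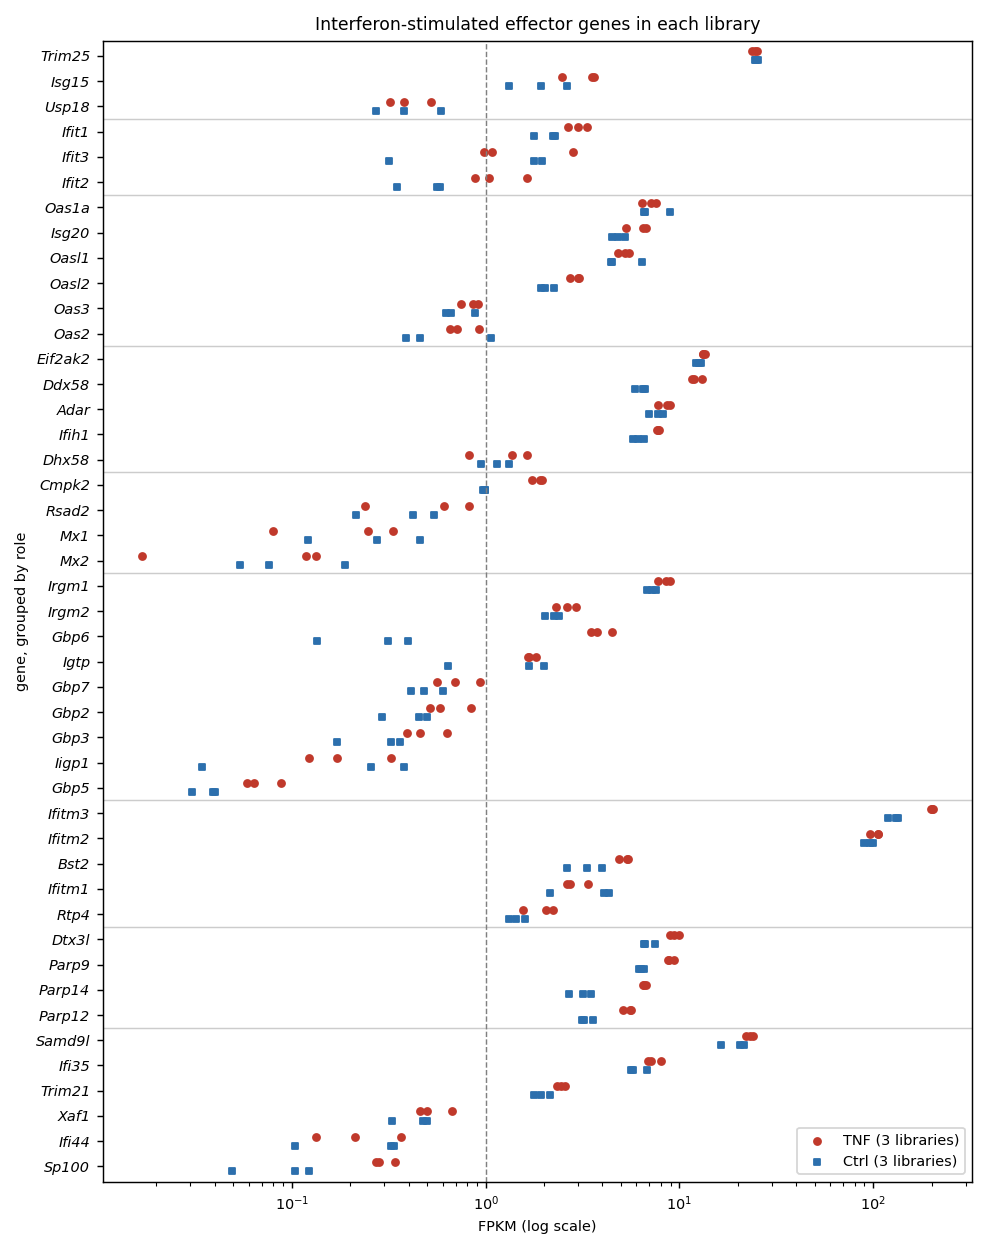
FPKM of the 45 genes in each library on a log scale, 3 TNF samples as circles above 3 Ctrl samples as squares, with grey lines between role groups and a dashed line at 1 FPKM. The circles and squares of Gbp6, Ddx58, Cmpk2, Parp12, Parp14 and Ifitm3 stand apart, while those of Trim25, Oas1a and Mx1 overlap; levels run from 0.017 FPKM for Mx2 in TNF replicate 3 to 202.9 FPKM for Ifitm3 in TNF replicate 2.

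**Figure D2:**
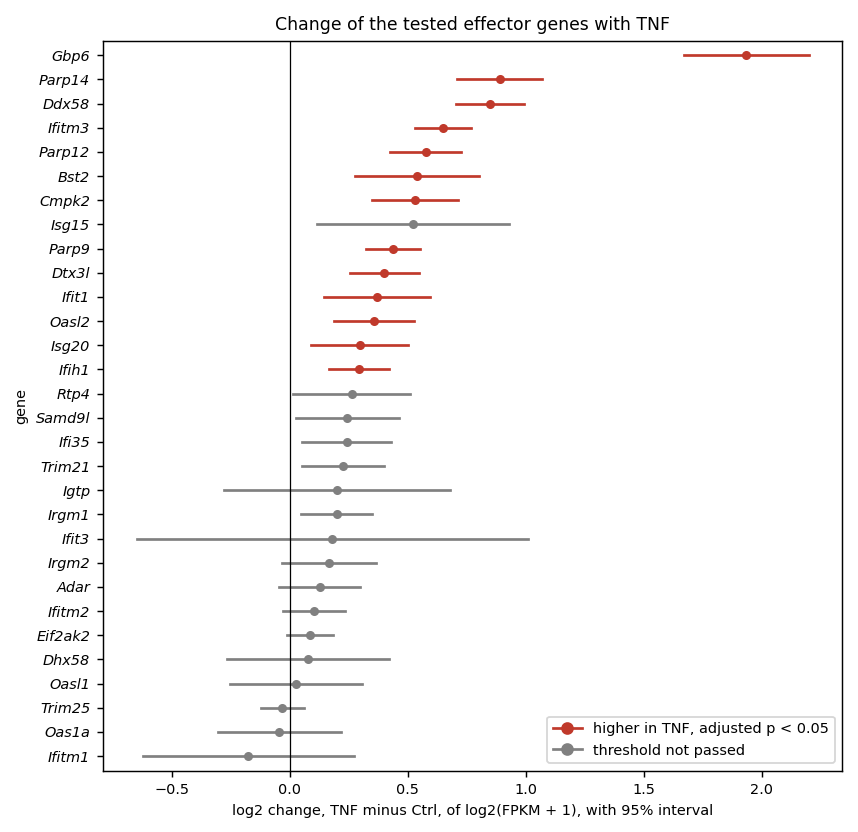
Change with TNF of the 30 tested genes, as the TNF minus Ctrl difference of mean log2(FPKM + 1) with its 95% interval from limma, coloured by call. Gbp6 stands farthest to the right at 1.93, the other 12 called genes lie between 0.29 and 0.89, and the 3 negative changes belong to Trim25, Oas1a and Ifitm1.

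The promoters were read for the elements that interferon factors bind, because genes with and without a call can be set side by side in this way. RefSeq windows of 300 bases on GRCm38.p6, which end 50 bases after the RefSeq gene start, were at hand for 35 of the 45 genes. The window table had no entry for Usp18, Rtp4, Parp14, Iigp1, Oas2, Mx1, Gbp6, Parp9, Mx2 and Dhx58. The ISRE core, taken as GAAA, any 2 bases and GAAA again, on either strand, was present in 20 of the 35 (57.1%), against 3.44% of all 32851 windows and 3.99% of the 27025 genes they belong to. It was found in 5 of 10 called genes, in 9 of 15 tested genes without a call and in 6 of 10 genes under the filter. The GAS core TTCNNNGAA, which reads the same on both strands, was in 12 of the 35 and in 9.55% of all genes with a window (8.30% of windows). An NF-κB consensus was in 3 of the 35, namely Bst2, Gbp5 and Oasl1, and in 5.14% of all genes with a window (4.51% of windows). These are matches of letters and not sites shown to be bound.

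The 5 called genes with an ISRE core were Bst2, Ddx58, Ifih1, Ifit1 and Ifitm3, and the 5 without were Cmpk2, Dtx3l, Isg20, Oasl2 and Parp12. Of the windows below, Ddx58, Ifitm3 and Bst2 hold the element and Parp12 and Cmpk2 do not, although all 5 genes were higher with TNF. Capitals mark every match to the ISRE core or its reverse complement, and each window is printed 5′ to 3′ on the strand of its gene. The windows lie at chr4:40239776-40240075, chr7:141010695-141010994, chr8:71537423-71537722 and chr6:39118300-39118599 on the minus strand, and at chr12:26468965-26469264 on the plus strand.
Ddx58: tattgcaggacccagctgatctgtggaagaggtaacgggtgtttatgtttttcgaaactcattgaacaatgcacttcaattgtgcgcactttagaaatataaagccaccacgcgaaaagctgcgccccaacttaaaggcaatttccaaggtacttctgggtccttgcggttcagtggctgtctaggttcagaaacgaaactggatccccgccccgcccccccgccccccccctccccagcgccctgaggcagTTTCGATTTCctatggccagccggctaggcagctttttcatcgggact
Ifitm3: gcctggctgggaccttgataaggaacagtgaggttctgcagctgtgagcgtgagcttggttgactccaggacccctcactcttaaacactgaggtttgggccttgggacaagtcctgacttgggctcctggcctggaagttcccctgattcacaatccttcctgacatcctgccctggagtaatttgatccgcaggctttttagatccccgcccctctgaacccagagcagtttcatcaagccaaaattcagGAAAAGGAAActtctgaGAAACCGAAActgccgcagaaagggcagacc
Bst2: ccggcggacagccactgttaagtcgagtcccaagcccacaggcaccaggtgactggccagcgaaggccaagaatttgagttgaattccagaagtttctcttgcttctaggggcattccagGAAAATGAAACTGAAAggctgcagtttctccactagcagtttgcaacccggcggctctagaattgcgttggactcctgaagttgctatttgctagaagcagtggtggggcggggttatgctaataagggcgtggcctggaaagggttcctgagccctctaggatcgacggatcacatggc
Parp12: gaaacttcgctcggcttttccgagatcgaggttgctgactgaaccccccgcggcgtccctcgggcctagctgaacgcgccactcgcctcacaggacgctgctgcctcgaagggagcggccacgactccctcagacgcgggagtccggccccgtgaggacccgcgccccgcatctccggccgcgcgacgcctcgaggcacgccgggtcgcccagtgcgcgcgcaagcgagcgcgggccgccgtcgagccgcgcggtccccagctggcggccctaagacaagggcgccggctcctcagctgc
Cmpk2: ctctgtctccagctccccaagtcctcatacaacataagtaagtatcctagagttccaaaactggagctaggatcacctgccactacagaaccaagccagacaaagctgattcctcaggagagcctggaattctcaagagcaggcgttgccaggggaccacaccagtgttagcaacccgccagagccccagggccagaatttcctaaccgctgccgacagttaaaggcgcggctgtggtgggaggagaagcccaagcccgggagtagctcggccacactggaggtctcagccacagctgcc
In Ddx58 and in Ifitm3 the first marked match starts 2 bases after the RefSeq gene start. In Bst2 the marked run holds 2 overlapping matches and starts 130 bases before the RefSeq start. RefSeq starts can differ from the GENCODE gene positions printed elsewhere in the text.

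The same core stands in windows of genes that were not called. The 30-base stretches below show it in Isg15, Oas1a, Irgm1, Ifit3 and Ifitm2, which had no call, in Gbp2, which stayed under the filter, and in Ifit1, which was called. They lie at chr4:156200871-156200900, chr5:120907523-120907552, chr11:48871428-48871457 and chr7:140955988-140956017 on the minus strand, and at chr19:34583363-34583392, chr3:142620594-142620623 and chr19:34640775-34640804 on the plus strand, with capitals as above.
Isg15: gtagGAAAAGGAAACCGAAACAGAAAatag
Oas1a: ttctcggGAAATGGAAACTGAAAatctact
Irgm1: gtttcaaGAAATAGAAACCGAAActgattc
Ifit3: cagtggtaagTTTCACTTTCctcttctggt
Ifitm2: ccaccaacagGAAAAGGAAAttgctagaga
Gbp2: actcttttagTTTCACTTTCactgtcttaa
Ifit1: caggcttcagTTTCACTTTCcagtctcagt
Isg15 carries 3 overlapping matches that start 78 bases before the RefSeq gene start, and Oas1a carries 2 that start 20 bases before its own. The marked letters of Ifit1, Ifit3 and Gbp2 are one and the same 10 bases, at 104, 156 and 59 bases before their RefSeq starts.

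ADP-ribosylation was the group in which every gene was called. Parp14, Parp9 and Parp12 belong to the family that attaches ADP-ribose to proteins, and Dtx3l is the ubiquitin ligase that works as a dimer with Parp9. Parp14 (ENSMUSG00000034422, chr16:35832874-35871544, GENCODE M21 on GRCm38) stood at 6.57, 6.52 and 6.70 FPKM in TNF samples, against 3.17, 2.68 and 3.50 FPKM in Ctrl samples. The TNF values were nearly the same and all above the Ctrl values, with a log2 change of 0.89 (SE 0.08, adjusted p = 0.000186, limma). Parp9 stood at 8.79, 9.36 and 8.72 FPKM in TNF samples, against 6.54, 6.32 and 6.18 FPKM in Ctrl samples, a log2 change of 0.44 (SE 0.05, adjusted p = 0.000628, limma). Its neighbour Dtx3l had 9.89, 9.32 and 8.99 FPKM with TNF, against 6.56, 6.61 and 7.47 FPKM in Ctrl samples, with a log2 change of 0.40 (SE 0.06, adjusted p = 0.00307, limma). All 3 genes lie near each other on chromosome 16. Parp9 and Dtx3l are on opposite strands and share 458 exonic bases, and since the strandedness of the libraries is not stated, reads from that stretch cannot be told apart. Parp12, on chromosome 6, had 5.65, 5.56 and 5.10 FPKM in TNF samples and 3.14, 3.59 and 3.23 FPKM in Ctrl samples, with a log2 change of 0.58 (SE 0.06, adjusted p = 0.000636, limma). No TNF value of any of the 4 genes overlapped a Ctrl value.

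Among the RNA sensors, the first line of detection of viral RNA in the cytosol, Ddx58 moved most. It encodes RIG-I, which recognises short double-stranded RNA with a triphosphate end. Ddx58 (ENSMUSG00000040296, chr4:40203773-40239828) stood at 11.9, 13.0 and 11.6 FPKM in TNF samples, against 6.45, 5.88 and 6.61 FPKM in Ctrl samples. The TNF mean of 12.2 ± 0.760 FPKM was 1.93 times the Ctrl mean of 6.31 ± 0.387 FPKM (SD, n = 3 each), a log2 change of 0.85 (SE 0.06, adjusted p = 8.07e-05, limma). Ifih1, which encodes MDA5, the sensor of long double-stranded RNA, had 7.71, 7.69 and 7.89 FPKM with TNF and 5.78, 6.15 and 6.57 FPKM in Ctrl samples. Its change was smaller than that of Ddx58, at 0.29 on the log2 scale (SE 0.05, adjusted p = 0.00703, limma), again without overlap. Dhx58, which encodes LGP2, a helper of MDA5, overlapped between groups, at 1.37, 0.825 and 1.63 FPKM with TNF and 1.32, 0.944 and 1.15 FPKM without (adjusted p = 0.753, limma). The kinase PKR (Eif2ak2), which stops translation on double-stranded RNA, had a log2 change of 0.09 with a 95% interval of -0.01 to 0.18 and no call (adjusted p = 0.186, limma), although its 3 TNF values of 13.3, 13.5 and 13.3 FPKM lay above the Ctrl values of 12.6, 12.1 and 12.9 FPKM. Adar, which edits adenosine to inosine in double-stranded RNA, stood at 7.78, 8.65 and 8.90 FPKM with TNF and 8.25, 6.93 and 7.79 FPKM without and was not called.

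The membrane proteins included the most abundant members. Ifitm3, which blocks fusion of viruses with endosomal membranes, reached 200.5, 202.9 and 198.4 FPKM in TNF samples, against 133.3, 130.8 and 119.0 FPKM in Ctrl samples. The TNF mean of 200.6 ± 2.24 FPKM was 1.57 times the Ctrl mean of 127.7 ± 7.64 FPKM (SD, n = 3 each), a log2 change of 0.65 (SE 0.05, adjusted p = 0.000117, limma; ENSMUSG00000025492, chr7:141009586-141010770). Its relative Ifitm2, second in level, stood at 96.6, 105.5 and 105.3 FPKM with TNF and 100.2, 96.3 and 89.7 FPKM without, and the values overlapped (log2 change 0.10, SE 0.06, adjusted p = 0.241, limma). On the log2 scale the 95% interval of Ifitm3 ran from 0.53 to 0.77. The difference between the changes of Ifitm3 and Ifitm2 was not itself tested, and 40.9% of the exonic bases of Ifitm2 also belong to another annotated gene. Ifitm1 had 2.72, 3.37 and 2.63 FPKM with TNF and 4.31, 2.15 and 4.08 FPKM without, with a log2 change of -0.18 (95% interval -0.62 to 0.27) and no call. Ctrl replicate 2 stood apart there, and without it Ifitm1 was called lower (log2 change -0.42, adjusted p = 0.0258, limma). Bst2 encodes tetherin, which holds budding virus on the cell surface. It had 5.37, 5.44 and 4.88 FPKM in TNF samples and 4.0, 2.62 and 3.33 FPKM in Ctrl samples, all TNF values above, with a log2 change of 0.54 (SE 0.11, adjusted p = 0.0117, limma). Rtp4, a receptor-transporting protein, stood at 2.24, 1.55 and 2.06 FPKM with TNF and 1.43, 1.33 and 1.59 FPKM without, and missed the threshold (unadjusted p = 0.0411, adjusted p = 0.121, limma), which it passed without TNF replicate 2 (adjusted p = 0.0408).

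The interferon-inducible GTPases attack the vacuoles in which microbes live. The guanylate-binding proteins (GBPs) lie in a cluster on chromosome 3 and another on chromosome 5, and the immunity-related GTPases elsewhere. Gbp6 (ENSMUSG00000104713, chr5:105270702-105293698) had 3.76, 4.46 and 3.49 FPKM in TNF samples, against 0.315, 0.397 and 0.135 FPKM in Ctrl samples. It entered the test only through its TNF values. The groups were far apart, with a TNF mean of 3.90 ± 0.502 FPKM, a Ctrl mean of 0.282 ± 0.134 FPKM (SD, n = 3 each) and a log2 change of 1.93 (SE 0.11, adjusted p = 3.15e-05, limma). Of its exonic bases, 29.0% are shared on the same strand with the gene model Gm43302, and reads of near-identical GBP copies may have been split by the authors' counting, which is not described in the sources used here.

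The other listed GBPs, all of chromosome 3, were low. Gbp2 stood at 0.843, 0.581 and 0.518 FPKM with TNF and 0.454, 0.50 and 0.291 FPKM without. Gbp3 had 0.393, 0.630 and 0.460 FPKM with TNF and 0.324, 0.361 and 0.172 FPKM without. Both stayed under the filter and were not tested, and in both each TNF value lay above each Ctrl value. The same was true of Gbp5, which was near the limit of detection at 0.0641, 0.0587 and 0.0877 FPKM with TNF and 0.0391, 0.0307 and 0.0403 FPKM without, or about 6, 6 and 9 fragments with TNF and 4, 3 and 4 without. Gbp7 overlapped between groups. For comparison, and chosen after their values were seen, the neighbours of Gbp6 on chromosome 5 were Gbp8 with ratios of mean FPKM of 26.5, Gbp9 with 11.7, Gbp4 with 5.76 and Gbp10 with 4.69. None of these 4 reached the filter, and their Ctrl values rest on few fragments, so the size of the ratios is imprecise. The Ctrl samples held about 3, 3 and 4 fragments for Gbp8 and 10, 10 and 2 for Gbp9. For Gbp4 they held about 5, 11 and 4, and for Gbp10 about 10, 10 and 2. A further neighbour, Gbp11, was listed at 0 in all samples but TNF replicate 3, where it had 0.040 FPKM, about 2 fragments. The gene model Gm43302 was called higher there (ratio of mean FPKM 10.2, log2 change 1.27, adjusted p = 0.000211, limma). Like Gbp6, it entered the test only through its TNF values. It shares 46.3% of the exonic bases of Gbp10 on the same strand, beside those of Gbp6. Gbp4, Gbp8 and Gbp9 share 60 or 61 bases with each other. The rises of these genes may therefore not be separate. The ratios of the chromosome 3 genes Gbp2, Gbp3, Gbp5 and Gbp7 were 1.56, 1.73, 1.91 and 1.46. The difference between the clusters was not tested.

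**Figure D3:**
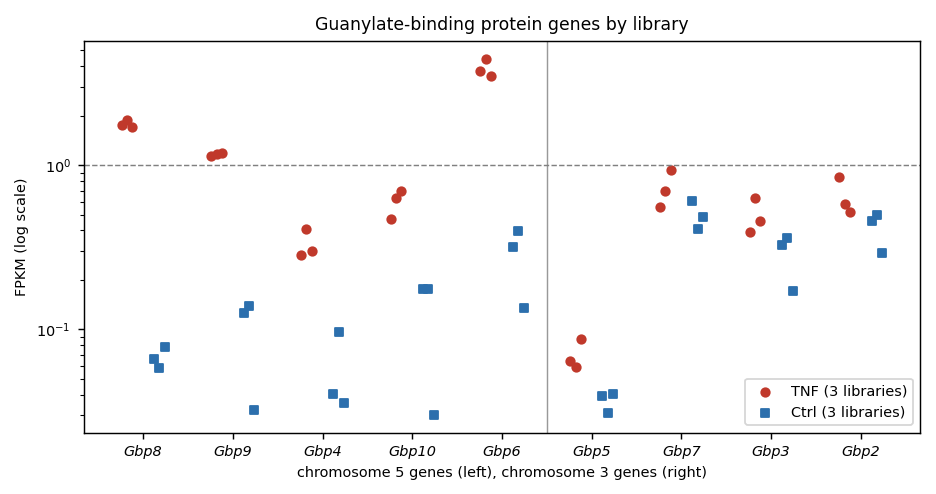
FPKM of GBP genes by library on a log scale, 3 TNF samples as circles left of 3 Ctrl samples as squares, chromosome 5 genes left of the grey line and chromosome 3 genes right of it, with a dashed line at the filter of 1 FPKM and Gbp11, near 0, not drawn. Each circle of the 5 chromosome 5 genes drawn lies above each square of its gene, by ratios of mean FPKM of 4.69 to 26.5. The chromosome 3 genes differ by ratios of 1.46 to 1.91. The Ctrl values of Gbp4, Gbp8, Gbp9 and Gbp10 rest on about 2 to 11 fragments each. The gene model Gm43302, which shares exonic bases with Gbp6 and Gbp10, is not drawn.

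The immunity-related GTPases were not called. Irgm1, a regulator of this family that also acts in autophagy, stood at 8.96, 8.49 and 7.75 FPKM in TNF samples and 7.57, 6.76 and 7.23 FPKM in Ctrl samples. Its groups did not overlap, and the log2 change of 0.20 (95% interval 0.05 to 0.35) missed the threshold after adjustment (unadjusted p = 0.0160, adjusted p = 0.0612, limma). Without TNF replicate 3 its adjusted p was 0.0418. Irgm2 had 2.31, 2.93 and 2.64 FPKM with TNF and 2.40, 2.03 and 2.25 FPKM without (adjusted p = 0.21, limma). Igtp, the third regulator, had 1.68, 1.64 and 1.83 FPKM with TNF and 1.68, 2.00 and 0.642 FPKM without, so that Ctrl replicate 3 alone stood low. Iigp1, an effector GTPase of the family, stayed under the filter at 0.122, 0.324 and 0.170 FPKM with TNF and 0.255, 0.380 and 0.0344 FPKM without.

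Among the OAS and RNA decay genes, Oas1a, Oas2 and Oas3 make the 2′-5′ oligoadenylates that switch on RNase L. Oas1a stood at 7.17, 6.43 and 7.61 FPKM in TNF samples and 8.95, 6.63 and 6.54 FPKM in Ctrl samples, fully overlapping, with a log2 change of -0.04 (95% interval -0.31 to 0.22, adjusted p = 0.813, limma). Oas2 and Oas3 stayed under the filter and overlapped between groups. Of the mouse OAS-like genes, Oasl2 rose, with 3.04, 2.72 and 3.01 FPKM in TNF samples, against 2.25, 1.92 and 2.02 FPKM in Ctrl samples (log2 change 0.36, SE 0.07, adjusted p = 0.0106, limma). Oasl1, known in mouse as an inhibitor of Irf7 translation, did not separate, at 5.48, 4.81 and 5.23 FPKM with TNF and 4.44, 6.41 and 4.50 FPKM without (adjusted p = 0.898, limma). Isg20, an exonuclease that degrades viral RNA, was called close to the threshold. It had 6.49, 5.32 and 6.69 FPKM in TNF samples and 5.22, 4.80 and 4.46 FPKM in Ctrl samples, a log2 change of 0.30 (SE 0.09, adjusted p = 0.0446, limma). This call was lost with other single libraries left out. The adjusted p was then 0.132 without TNF replicate 1, 0.136 without TNF replicate 3, 0.0539 without Ctrl replicate 1, 0.0948 without Ctrl replicate 2 and 0.122 without Ctrl replicate 3 (limma).

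The IFIT proteins bind foreign RNA by its 5′ end and hold it back from translation. Ifit1 had 3.34, 3.00 and 2.65 FPKM in TNF samples, against 2.22, 2.28 and 1.77 FPKM in Ctrl samples. All TNF values lay above, with a log2 change of 0.37 (SE 0.10, adjusted p = 0.0285, limma). Without TNF replicate 1 its adjusted p was 0.0910, without TNF replicate 2 it was 0.0771, without Ctrl replicate 1 it was 0.0530 and without Ctrl replicate 3 it was 0.0717. Ifit2 was just under the filter, with 1.64, 1.04 and 0.879 FPKM in TNF samples and 0.583, 0.558 and 0.348 FPKM in Ctrl samples, no overlap and a ratio of mean FPKM of 2.39, but no test. In the fit without a filter its adjusted p was 0.0924 (limma). Ifit3 varied widely inside both groups, at 1.07, 2.82 and 0.979 FPKM with TNF and 1.77, 1.95 and 0.317 FPKM without. Its log2 change of 0.18 had a 95% interval of -0.65 to 1.01 (adjusted p = 0.757, limma), so these samples could not resolve a difference of that size.

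Isg15, the ubiquitin-like protein that is attached to viral and host proteins, did not pass the test. It stood at 3.53, 3.63 and 2.48 FPKM in TNF samples and 2.62, 1.94 and 1.32 FPKM in Ctrl samples (ENSMUSG00000035692, chr4:156199424-156200818). Only TNF replicate 3 lay below the highest Ctrl value. The TNF mean of 3.22 ± 0.637 FPKM was 1.64 times the Ctrl mean of 1.96 ± 0.652 FPKM (SD, n = 3 each), with a log2 change of 0.52 (95% interval 0.11 to 0.93, unadjusted p = 0.0185, adjusted p = 0.0681, limma). Its adjusted p was 0.0497 without TNF replicate 3 and 0.029 without Ctrl replicate 1. Usp18, the protease that removes Isg15 and restrains the type I receptor, was low, at 0.523, 0.380 and 0.320 FPKM with TNF and 0.588, 0.271 and 0.377 FPKM without, and was not tested. Trim25, a ubiquitin ligase linked to RIG-I, was abundant and level across the samples, at 25.0, 23.7 and 24.5 FPKM with TNF and 24.6, 24.9 and 25.3 FPKM without. The 95% interval of its log2 change ran from -0.12 to 0.06.

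In the Mx and viperin group only Cmpk2 passed the filter, and it did so only through its TNF values. It encodes a mitochondrial nucleotide kinase and lies beside Rsad2, the gene of viperin, which makes a chain-terminating nucleotide. Cmpk2 had 1.95, 1.92 and 1.74 FPKM in TNF samples, against 0.998, 0.967 and 0.990 FPKM in Ctrl samples. The spread inside each group was small beside the gap, with a log2 change of 0.53 (SE 0.08, adjusted p = 0.00239, limma). Rsad2 overlapped, at 0.610, 0.819 and 0.240 FPKM with TNF and 0.423, 0.542 and 0.215 FPKM without. Mx1, a dynamin-like GTPase against influenza virus that is not functional in C57BL/6 mice, was low in all samples, at 0.333, 0.248 and 0.0796 FPKM with TNF and 0.276, 0.460 and 0.121 FPKM without. Its paralog Mx2 was lower still and overlapped as well.

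The remaining effectors gave no call. Samd9l, a brake on translation and growth, was the fourth most abundant member, at 23.2, 22.2 and 23.9 FPKM with TNF and 21.5, 20.5 and 16.3 FPKM without (adjusted p = 0.101, limma). Ifi35 (adjusted p = 0.0680) and Trim21, a cytosolic antibody receptor (adjusted p = 0.0660), had log2 changes of 0.24 and 0.22 in limma, and like Samd9l showed no overlap between groups. Ifi35 passed without Ctrl replicate 1 (adjusted p = 0.0295), and Trim21 with a constant prior variance (adjusted p = 0.0377). Sp100, a nuclear body protein, was under the filter, yet its TNF values of 0.341, 0.283 and 0.273 FPKM all exceeded its Ctrl values of 0.104, 0.123 and 0.0490 FPKM. Xaf1 and Ifi44 were under the filter and overlapped. In the fit without a filter, 1 of the 3 untested effectors of this group was called higher (limma). Among the 15 genes under the filter, 5 (Ifit2, Gbp2, Gbp3, Gbp5 and Sp100) had every TNF value above every Ctrl value, against 10.9% of all genes with a mean above 0 and under 1 FPKM. These shares are not like for like. The 15 members had values above 0 in every library, as did only 7082 of those 17590 genes. A gene listed at 0 in any TNF sample cannot show the pattern, and the share over the 7082 genes was not computed.

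The level of a gene and its call can be read side by side. Of the 15 members that averaged at least 5 FPKM, 6 were called higher, against 14.3% of all genes at that level. Of the 5 that averaged at least 10 FPKM, 1 was called higher, against 16.4% of all such genes. Those 5 were Ifitm3, Ifitm2, Trim25, Samd9l and Eif2ak2, in falling order of level per length.

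The lowest values of the members did not fall evenly over the libraries. Ctrl replicate 3 had the lowest value of all 6 libraries in 21 of the 45 genes. The share over all genes was not computed. A Ctrl library is the lowest of 6 more often where TNF values are higher, and 27 of the 30 tested changes were positive. Among the Ctrl samples, Ctrl replicate 3 was lowest in 11 of the 15 members under the filter (73.3%). Of all genes with a mean under 1 FPKM and every value above 0, it was lowest in 35.3%. Among the 30 tested members it was lowest in 13 (43.3%), against 31.7% of all tested genes, and Ctrl replicate 2 in 12. Ctrl replicate 1 was the highest Ctrl sample in 17 of the 30, against 3528 of all 12350 tested genes. TNF replicate 3 was the lowest TNF sample in 7 of the 15 (46.7%) and 13 of the 30 (43.3%), against 35.7% and 35.0% of all such genes. With both of these libraries left out, an alternative chosen after seeing the data, 9 members were called higher.

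**Figure D4:**
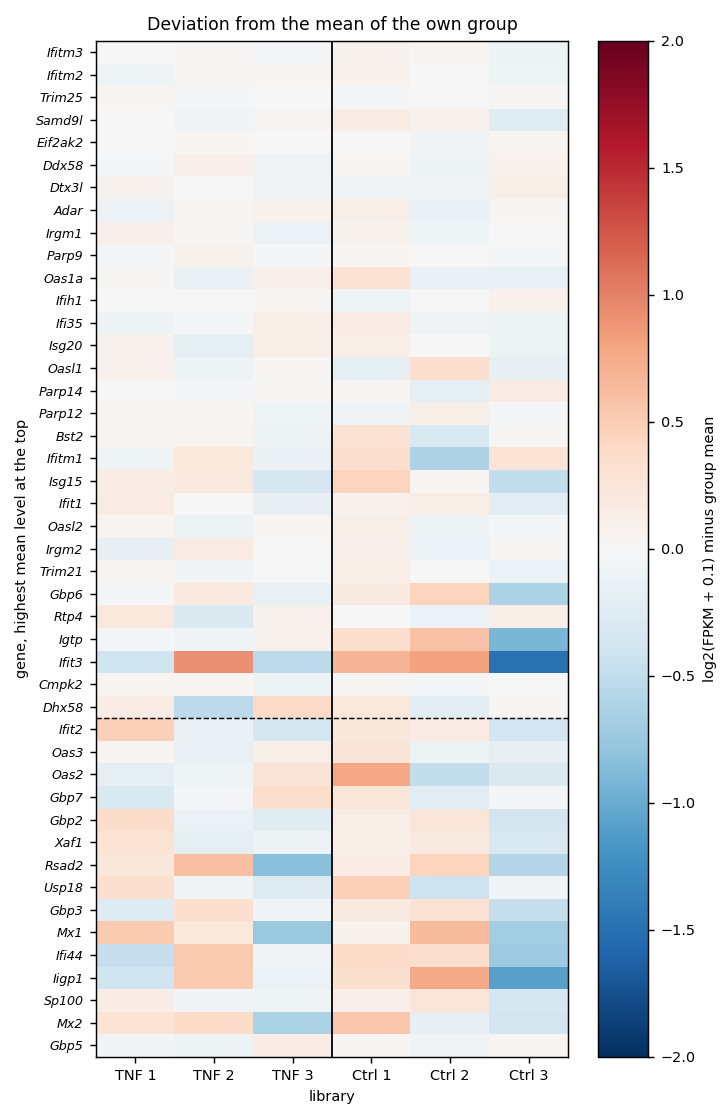
Difference of log2(FPKM + 0.1) from the mean of its own group for the 45 genes in the 3 TNF libraries, left, and the 3 Ctrl libraries, right, ordered by mean level, with a dashed line between tested and untested genes. Ctrl replicate 3 is blue, that is low, in most rows under the line, where it is the lowest Ctrl sample for 11 of 15 genes, and Ifit3 is among the rows with the strongest colours.

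The genes that carry the interferon signal were read from a second list of 51 genes, of which 39 were in the table and 31 were tested. TNF raised 12 of these 31 (38.7%) and lowered 4, against 12.9% and 11.1% of all tested genes. Among the 12, Irf5 entered the test only through its TNF values. The ligands were scarcely seen. Ifnb1 was listed at 0 in 5 libraries and at 0.0775 FPKM, about 1 fragment, in TNF replicate 1. Ifng was at 0.206, 0 and 0.214 FPKM in TNF samples and listed at 0 in the 3 Ctrl samples, and Ifnk and Ifnz were also untested. The type III ligands Ifnl2 and Ifnl3 and 10 further type I ligands had no row under these symbols in the deposited table. Their levels are therefore unknown here.

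Of the 6 receptor genes, 3 rose. Ifngr1, a chain of the interferon gamma receptor, had 87.4, 86.2 and 86.7 FPKM in TNF samples, against 55.7, 63.7 and 55.1 FPKM in Ctrl samples (log2 change 0.57, SE 0.06, adjusted p = 0.000419, limma). Its partner Ifngr2 had a ratio of mean FPKM of 1.46 (adjusted p = 0.000467, limma). Ifnar1, of the type I receptor, had 12.4, 12.8 and 11.9 FPKM with TNF and 10.4, 10.5 and 10.2 FPKM without (log2 change 0.23, adjusted p = 0.00804, limma). The type III receptor chain Ifnlr1 stood at 2.73, 2.63 and 2.98 FPKM with TNF and 3.67, 3.06 and 3.94 FPKM without. Its TNF values all lay below the Ctrl values, but it had no call (log2 change -0.26, adjusted p = 0.0626, limma). It passed without Ctrl replicate 2 (adjusted p = 0.02) and with quantile normalization (adjusted p = 0.0482). Among kinases and transducers, the Janus kinase gene Jak1 rose, with 25.7, 24.9 and 24.4 FPKM in TNF samples, against 21.0, 21.2 and 20.9 FPKM in Ctrl samples (log2 change 0.24, SE 0.04, adjusted p = 0.00367, limma). Stat2 and Irf9 were not called. Stat2 had 4.26, 5.27 and 4.86 FPKM with TNF and 4.47, 4.16 and 4.62 FPKM without, and Irf9 had 4.44, 3.68 and 3.72 FPKM with TNF and 3.49, 3.48 and 3.56 FPKM without. Their log2 changes were 0.10 for Stat2 (adjusted p = 0.415) and 0.13 for Irf9 (adjusted p = 0.241) in limma.

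Interferon regulatory factors differed among themselves. Irf1, which responds to TNF through NF-κB and is also induced by interferon, had 15.6, 15.9 and 16.6 FPKM in TNF samples, against 5.34, 5.67 and 5.31 FPKM in Ctrl samples. Its ratio of mean FPKM was 2.95 and its log2 change 1.40 (SE 0.05, adjusted p = 2.35e-06, limma). Irf5 rose as well, by a ratio of mean FPKM of 3.92 (adjusted p = 0.000538, limma), but with means of 1.82 FPKM in TNF samples and 0.466 FPKM in Ctrl samples it entered the test only through its TNF values. Irf8 fell, with 8.01, 8.57 and 9.06 FPKM in TNF samples, against 17.6, 17.1 and 15.2 FPKM in Ctrl samples (log2 change -0.88, SE 0.07, adjusted p = 9.51e-05, limma). Irf7, the amplifier of the type I response and itself induced by interferon, overlapped between groups, at 6.50, 6.59 and 6.12 FPKM with TNF and 6.56, 7.02 and 5.91 FPKM without. The 95% interval of its log2 change ran from -0.17 to 0.14.

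Of the sensors and adaptors upstream of interferon, 4 of 7 tested genes rose and 1 fell. The kinase Ikbke had 15.4, 16.2 and 15.6 FPKM in TNF samples and 6.70, 5.93 and 7.15 FPKM in Ctrl samples (log2 change 1.14, adjusted p = 2.66e-05, limma). Sting1, the adaptor of DNA sensing, had 4.17, 4.62 and 4.38 FPKM with TNF and 2.07, 2.05 and 2.09 FPKM without (log2 change 0.81, adjusted p = 8.64e-05, limma). The receptor of double-stranded RNA Tlr3 and the kinase Tbk1 also rose, by 0.44 and 0.50 on the log2 scale. Mavs, the adaptor on mitochondria that relays signals of RIG-I and MDA5, fell, with 14.5, 14.8 and 16.2 FPKM in TNF samples, against 20.9, 23.4 and 22.3 FPKM in Ctrl samples (log2 change -0.52, SE 0.06, adjusted p = 0.0007, limma). Among the inhibitors, Irf2bp2 fell (log2 change -0.52, adjusted p = 0.000167, limma), Socs3 fell (-0.44, adjusted p = 0.0236) and Ptpn2 rose (0.25, adjusted p = 0.0298). The call of Socs3 was lost without TNF replicate 1, 2 or 3 or Ctrl replicate 2 or 3 (adjusted p 0.0551 to 0.0719), and without a filter (0.075), and that of Ptpn2 without TNF replicate 1 or 2 or Ctrl replicate 1 or 3 (0.0841 to 0.0974) and without a filter (0.079). Socs1, the feedback inhibitor of the Janus kinases, stayed under the filter, at 0.182, 0.103 and 0.118 FPKM with TNF, against 0, 0 and 0.0346 FPKM in Ctrl samples. The transcript of Tnf itself stood at 27.5, 24.6 and 24.5 FPKM in TNF samples, against 4.96, 4.47 and 5.15 FPKM in Ctrl samples (log2 change 2.18, adjusted p = 1.32e-06, limma).

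**Figure D5:**
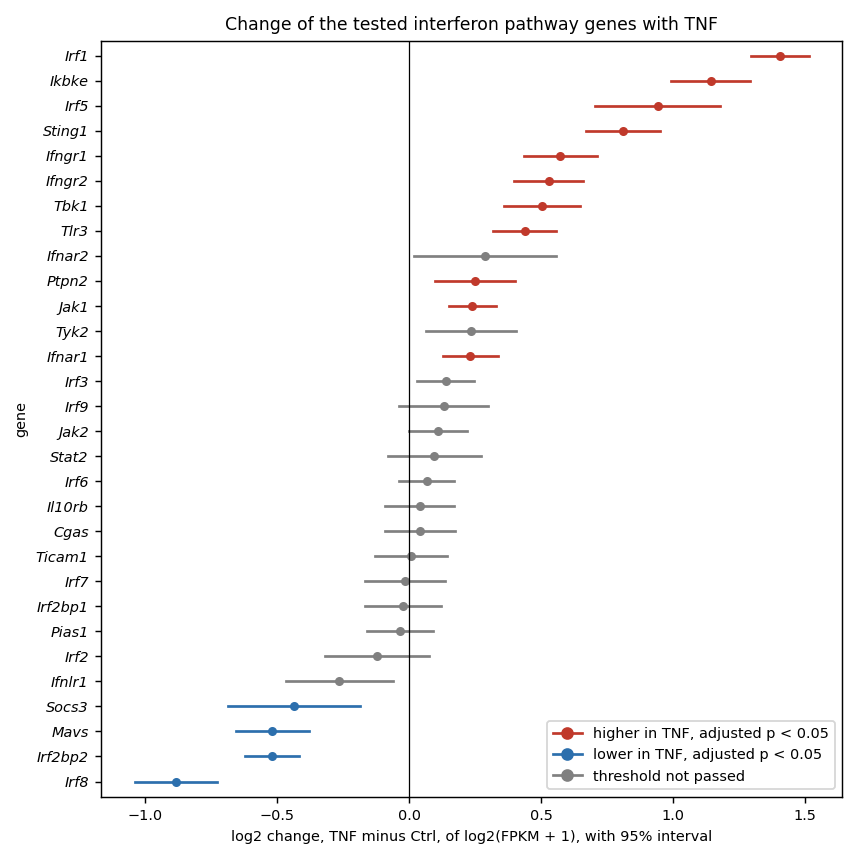
Change with TNF of 30 of the tested interferon pathway genes, as the TNF minus Ctrl difference of mean log2(FPKM + 1) with its 95% interval from limma, coloured by call. Irf1 at 1.40 and Ikbke at 1.14 stand to the right, Irf8 at -0.88 and Mavs at -0.52 stand to the left, and the intervals of Irf7 and Stat2 include 0.

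Leukocyte markers were mixed. The summed level of 18 leukocyte markers was 17.3 to 40.2 FPKM in TNF samples and 19.7 to 38.5 FPKM in Ctrl samples with Lyz2 and C1qa as its most abundant genes. Lyz2 stood at 15.7, 15.7 and 2.72 FPKM in TNF samples and 4.65, 16.0 and 15.6 FPKM in Ctrl samples, so that TNF replicate 3 and Ctrl replicate 1 were low. Of the 18, 5 passed the filter and had a median log2 change of -0.20. Laptm5 alone of these was called higher (log2 change 0.62, adjusted p = 0.0165, limma), and with means of 1.78 FPKM in TNF samples and 0.817 FPKM in Ctrl samples it entered the test only through its TNF values. The macrophage genes C1qa and C1qb overlapped, with ratios of mean FPKM of 0.876 and 0.832. Every TNF value lay above every Ctrl value for 5 of the 18 (Laptm5, Ptprc, Cd3e, Cd3g and Nkg7), a pattern shown by 21.0% of all tested genes and 10.9% of genes under the filter. The 10.9% counts genes listed at 0 in some samples. The other 13 overlapped. Among markers of T and natural killer cells, chosen after their values were seen, Cd3e had 0.595, 0.467 and 0.398 FPKM with TNF and 0.0275, 0.0761 and 0.0551 FPKM without, and Nkg7 had 0.468, 0.774 and 0.664 FPKM with TNF and was listed at 0 in the 3 Ctrl samples. The pan-leukocyte marker Ptprc stood at 0.382, 0.377 and 0.374 FPKM with TNF and 0.198, 0.146 and 0.194 FPKM without. The part of these cells in the values of the 45 genes was not tested. Endothelial markers summed to under 1 FPKM in every sample, at 0.645 to 0.838 FPKM with TNF and 0.270 to 0.774 FPKM without.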

How the data were processed

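RNA-seq values of 6 colon organoid libraries, 3 TNF and 3 Ctrl, were analysed. The authors deposited 1 table of 29940 genes with values called normalized counts. Treating these deposited values as FPKM is an inference from the values: multiplied by exonic length they summed to 9.59e+08 to 9.64e+08 per library, near what FPKM must give, while their plain sums of 327900 to 336200 match neither CPM nor TPM. Per the submitters' processing notes, cutadapt 1.9, FastQC and GRCm38 were used. The sources used here do not give the aligner, the counting, its strand setting or the annotation release.

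Low values of single-exon genes came in steps of 1 base (64.6% to 79.3% of 1771 to 1891 values per library within 0.1 base of a whole number), which gave 4.18 to 4.80 gigabases. The commonest low value, 298 bases, was taken as 1 fragment. Whole reads were not recovered, so no test on counts was run, and precision is low for genes near the filter.

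Genes that averaged at least 1 FPKM were tested as log2(FPKM + 1) with limma 3.58.1 in R 4.3.3 (trend in the prior variance, group as the only term, two-sided, Benjamini-Hochberg threshold 0.05). A fold change on this scale understates that of low genes. The procedure was checked on simulated data. Every member is named. Given in full are the called members with the smallest p of each role, plus Isg15, Ifit1, Ifit3, Oas1a, Mx1, Gbp2, Irgm1, Bst2 and Ifitm3 whatever their result; for the pathway, Irf1, Irf7, Irf9, Stat2, Ifnb1, Ifnlr1, Ifnar1, Ifngr1, Socs1 and Tnf were given whatever their result, with called genes of each role. Members and lists were chosen with earlier results of these data known. Exons of 17 members overlap another annotated gene. The values of 1 pathway gene are not reported here. Sting1 and Cgas were listed under the older symbols Tmem173 and Mb21d1 and matched to the symbols of the deposited table. Gene positions came from GENCODE M21 on GRCm38 and promoter windows from RefSeq on GRCm38.p6. Alternatives were other pseudocounts, filters, scalings, prior settings, a replicate block and left-out libraries.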

Additional observations from a re-analysis of the deposited data

How the results depend on the processing

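Under other pseudocounts, scalings, prior settings, filters and left-out libraries, Ddx58, Gbp6, Cmpk2, Parp9, Parp12, Parp14, Dtx3l and Ifitm3 kept their calls in each fit that tested them. Among the 45 members, the calls lost most often were those of Isg20 (12 of 17 alternatives) and Ifit1 (7 of 16). The adjusted p of Isg20 ran from 0.0143 to 0.266 in limma. Of the pathway genes, Socs3 lost its call under 9 and Ptpn2 under 7. Bst2 missed the threshold without a filter (adjusted p = 0.0525) and without both Ctrl replicate 3 and TNF replicate 3 (0.0639), Oasl2 in both fits that left out a pair of libraries, and Ifih1 without both Ctrl replicate 1 and TNF replicate 3 (limma). Members called higher numbered 11 to 14 with 1 library left out, 10 without both Ctrl replicate 1 and TNF replicate 3, and 9 without both Ctrl replicate 3 and TNF replicate 3, the last added after seeing the data. A filter of at least 5 FPKM gave 6, because only 15 members were then tested. Members called lower numbered 0 to 1 with 1 library left out, the 1 being Ifitm1 without Ctrl replicate 2 (log2 change -0.42, adjusted p = 0.0258, limma). The median log2 change of the members was 0.36 with a pseudocount of 0.1, 0.16 with a pseudocount of 5 and 0.23 to 0.32 with 1 library left out. All genes called higher and lower numbered 1149 to 1430 and 913 to 1177 with 1 library left out, 821 and 596 without both Ctrl replicate 1 and TNF replicate 3, and 1004 and 721 without both Ctrl replicate 3 and TNF replicate 3. With fewer samples the test has less power. Pathway genes numbered 11 to 13 higher and 3 to 4 lower with 1 library left out. An ISRE core with a spacer of 3 instead of 2 bases was in the windows of 6 of the 35 genes, against 20 with the spacer of 2.

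Changes that turned sign all belonged to genes without a call, and the cause was not tested. With 1 library left out, log2 changes ran from -0.19 to 0.39 for Ifit3, -0.11 to 0.086 for Oas1a, -0.05 to 0.17 for Oasl1, -0.42 to -0.039 for Ifitm1, -0.036 to 0.23 for Dhx58, -0.061 to 0.37 for Igtp, -0.0088 to 0.081 for Il10rb, -0.073 to 0.034 for Irf7, -0.028 to 0.055 for Ticam1 and -0.078 to 0.038 for Irf2bp1. Without both Ctrl replicate 3 and TNF replicate 3 they were -0.023 for Ifit3, -0.16 for Oas1a, -0.049 for Oasl1, -0.031 for Dhx58, -0.091 for Igtp, 0.073 for Ticam1 and 0.031 for Irf2bp1. Without both Ctrl replicate 1 and TNF replicate 3 they were 0.51 for Ifit3, 0.038 for Oas1a, -0.057 for Oasl1, 0.011 for Ifitm1, -0.012 for Il10rb, 0.020 for Irf7 and -0.0029 for Ticam1, which was also -0.0011 with quantile normalization and -0.00076 with the same median in every library.

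Samples with the same replicate number did not deviate together (correlations of -0.004, -0.10 and 0.01 over 12350 genes). These values cannot decide whether the numbers mark shared animals or cultures, which the labels do not state. With a replicate block, 13 members were called higher, Isg15 had an adjusted p of 0.0157, Isg20 of 0.0629 and the pathway gene Socs3 of 0.0557 in limma, and 1256 genes were called higher and 1004 lower. At this depth, genes under 1 FPKM rest on few fragments.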

Other observations

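The IFIT locus also holds relatives outside the 45 genes, chosen after their values were seen. Ifit1bl1 was more abundant than any listed IFIT gene, with 17.3, 15.8 and 13.1 FPKM in TNF samples, against 9.40, 11.9 and 9.63 FPKM in Ctrl samples, and was called higher (log2 change 0.54, adjusted p = 0.0125, limma). Ifit1bl2 went the other way, with 0.978, 1.01 and 1.20 FPKM in TNF samples, against 2.24, 2.84 and 2.48 FPKM in Ctrl samples, and was called lower (log2 change -0.77, adjusted p = 0.000931, limma). Ifit3b, a near copy of Ifit3, overlapped between groups, at 0.610, 1.52 and 0.595 FPKM with TNF and 1.31, 1.15 and 0.241 FPKM without, and in both genes TNF replicate 2 was the highest TNF sample and Ctrl replicate 3 the lowest Ctrl sample. Reads shared by these copies may have been split by the authors' counting in a way not given in the sources used here.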
